A study of Arabidopsis thaliana with 8 samples.

Results

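Roots of Arabidopsis thaliana use a set of cell wall genes to build root hairs, the tubular outgrowths of epidermal cells. Of these and related genes, 5 are described here: the alpha-expansins EXPA7 and EXPA18, the class III peroxidase gene AT3G49960, and the loci AT5G04970 and AT4G25790. They are 5 of the 13356 genes that a probe set of the array names on its own, and each has 1 such probe set. The tables used here give the last 3 only a locus number, so their families are stated as background knowledge: AT5G04970 belongs to the pectin methylesterases and AT4G25790 to the CAP proteins, a family of small secreted cysteine-rich proteins that includes PR1.

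Expansins loosen the wall without cutting its polymers, and EXPA7 and EXPA18 are known for their expression in root hair cells. Class III peroxidases are secreted haem enzymes that can stiffen a wall by cross-linking or loosen it through reactive oxygen. Pectin methylesterases strip methyl groups from pectin and so change how it gels with calcium. FIT, the basic helix-loop-helix factor mutated in fit plants, drives iron uptake in the root epidermis, the layer that also bears the hairs.

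Whole roots of WT and fit plants were taken after 14 days on Gamborg medium and 3 further days on a mineral agar medium. That medium held either 50 µM Fe(III)-EDTA (+Fe) or no added iron and 300 µM ferrozine, a chelator of ferrous iron (-Fe). The 4 groups, WT +Fe, WT -Fe, fit +Fe and fit -Fe, held 2 arrays each, which the labels call biological replicates. The fit allele and any pooling of plants were not given in the labels, and the fit mutation could not be checked because FIT is not named by a probe set of its own. Values are log2 of the deposited signal intensity, summarised per probe set by RMA, a method that corrects background, normalises arrays by quantiles and combines probes.

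Array medians ran from 6.81 to 6.88 on the log2 scale. On replicate 2 of WT -Fe and of fit -Fe, the mean ratio of 3' to 5' signal of actin, GAPDH and ubiquitin control transcripts, a measure of RNA quality, was 3.08 and 5.22, against 1.07 to 1.53 on the other 6 arrays. Of 55 other root hair genes listed, only 4 were measured, and of 46 marker genes of other cell types or of epidermal patterning, also 4. No endodermis, stele, root cap or meristem marker was measured. In whole roots, fewer hair cells and less RNA per hair cell cannot be told apart.

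The 5 genes were chosen by their signal on these same arrays. AT3G49960, AT5G04970 and AT4G25790 were taken because they were lower in iron-deficient fit roots, AT3G49960 also because it was lower in iron-deficient WT roots, and EXPA7 and EXPA18 with their values in fit known. Levels and changes that involve the fit -Fe arrays are therefore a description with no test.

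All 5 genes had their lowest signal in iron-deficient fit roots. For each of them both fit -Fe arrays lay below all 6 other arrays, an ordering found in 4.69% of the 22746 probe sets. The 5 differed in WT under iron deficiency, where the expansins and AT4G25790 had signals that overlapped those of WT with iron. For AT3G49960 and AT5G04970 both arrays lay below them, as in 19.3% of all probe sets. AT3G49960 was chosen partly for its lower signal there.

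**Figure D1:**
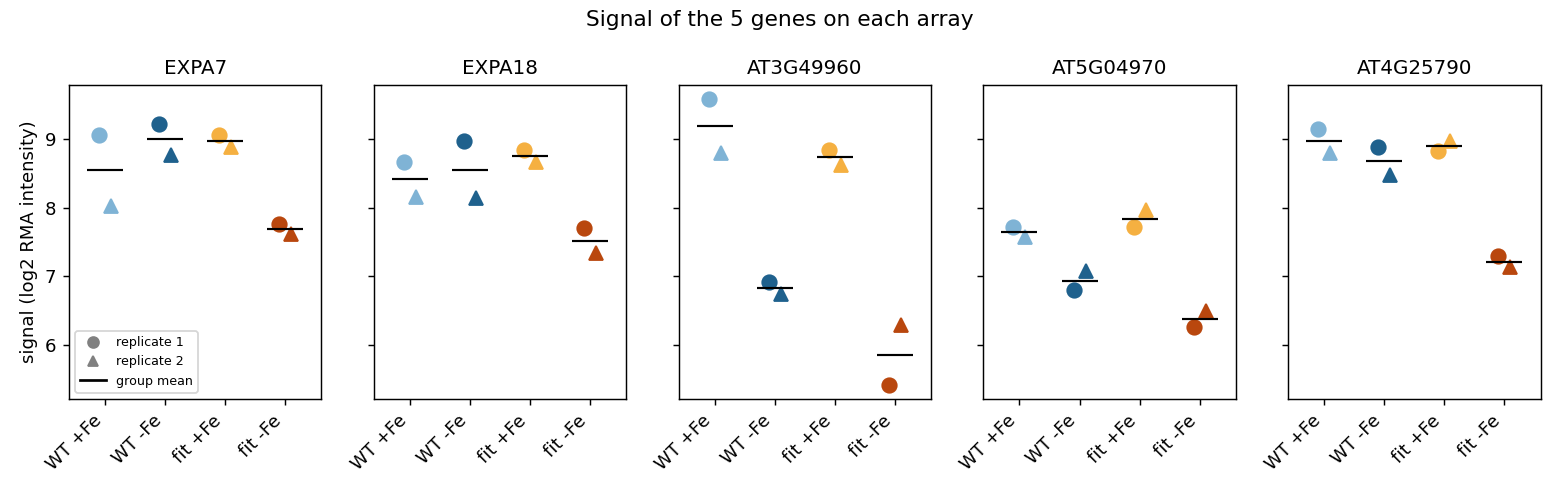
Signal of each gene on each array, as log2 RMA intensity on the vertical axis, with the 4 groups along the horizontal axis. Circles are replicate 1, triangles replicate 2 and lines the mean of the 2 arrays. The fit -Fe arrays are the lowest in every panel, and WT -Fe lies apart from WT +Fe for AT3G49960 and AT5G04970 but not for the other 3 genes.

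EXPA7 had log2 signals of 7.76 and 7.62 on the fit -Fe arrays (replicates 1 and 2), 9.05 and 8.87 on fit +Fe, 9.21 and 8.77 on WT -Fe and 9.06 and 8.03 on WT +Fe. From low to high the group means were 7.69 ± 0.10 in fit -Fe, 8.54 ± 0.73 in WT +Fe, 8.96 ± 0.13 in fit +Fe and 8.99 ± 0.31 in WT -Fe (SD, n = 2 each). The 3 upper groups overlapped, and the wide spread of WT +Fe came from its replicate 2, the lowest array outside fit -Fe. Iron-deficient fit roots were 2.42-fold lower than iron-sufficient ones (log2 fold change -1.28, SE 0.33).

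EXPA18, its close relative, had 7.70 and 7.33 on fit -Fe, 8.84 and 8.66 on fit +Fe, 8.96 and 8.14 on WT -Fe and 8.66 and 8.16 on WT +Fe. The order of means was fit -Fe at 7.52 ± 0.26, WT +Fe at 8.41 ± 0.36, WT -Fe at 8.55 ± 0.59 and fit +Fe at 8.75 ± 0.13 (SD, n = 2 each). As for EXPA7, only the fit -Fe arrays stood clear of the rest, and the WT groups overlapped with each other and with fit +Fe. Between fit -Fe and fit +Fe the signal was 2.35-fold lower (log2 -1.23, SE 0.31).

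AT4G25790, the CAP protein gene, read 7.29 and 7.14 on fit -Fe, 8.82 and 8.96 on fit +Fe, 8.87 and 8.47 on WT -Fe and 9.14 and 8.79 on WT +Fe. Its means ran from 7.21 ± 0.11 in fit -Fe through 8.67 ± 0.29 in WT -Fe and 8.89 ± 0.10 in fit +Fe to 8.97 ± 0.25 in WT +Fe (SD, n = 2 each). The upper 3 groups overlapped here too. The change with iron in fit was 3.20-fold (log2 -1.68, SE 0.22), and this gene also had the largest gap of the 5 between fit -Fe and WT -Fe (log2 -1.46, SE 0.22).

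AT3G49960, the class III peroxidase gene, had 5.43 and 6.29 on fit -Fe, 6.92 and 6.74 on WT -Fe, 8.83 and 8.62 on fit +Fe and 9.57 and 8.79 on WT +Fe. Here the order followed iron before genotype: 5.86 ± 0.61 in fit -Fe, 6.83 ± 0.13 in WT -Fe, 8.73 ± 0.15 in fit +Fe and 9.18 ± 0.55 in WT +Fe (SD, n = 2 each). All 4 iron-deficient arrays lay below all 4 iron-sufficient ones, and only the iron-sufficient groups overlapped. The signal was 5.09-fold lower under iron deficiency in WT (log2 -2.35, SE 0.34) and 7.31-fold lower in fit (log2 -2.87, SE 0.34). Among all 22746 probe sets its change was the 4th lowest in WT and the 2nd lowest in fit.

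AT5G04970, the pectin methylesterase gene, had 6.26 and 6.50 on fit -Fe, 6.80 and 7.08 on WT -Fe, 7.72 and 7.96 on fit +Fe and 7.72 and 7.58 on WT +Fe. The means were 6.38 ± 0.17 in fit -Fe, 6.94 ± 0.20 in WT -Fe, 7.65 ± 0.10 in WT +Fe and 7.84 ± 0.17 in fit +Fe (SD, n = 2 each). Again the iron-deficient arrays of both genotypes lay below every iron-sufficient array, and the iron-sufficient groups overlapped. In fit the change was 2.74-fold (log2 -1.45, SE 0.20).

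The log2 fold change in WT shares no array with the one in fit. Its SE, interval and adjusted p come from the model of all arrays, which the fit arrays enter. The choice was made with earlier results of these data known, so the WT tests are not independent of it. For 4 of the genes the WT response was not among the stated reasons for their choice. None of these 4 changed by limma, a linear model that pools the spread over probe sets, at an adjusted p under 0.05. AT5G04970 had a log2 fold change of -0.71 (SE 0.20, 95% interval -1.17 to -0.25, limma adjusted p = 0.392), with both WT -Fe arrays below both WT +Fe arrays, as in 19.3% of all probe sets. AT4G25790 had -0.30 (SE 0.22, interval -0.79 to 0.20, limma adjusted p = 0.881). EXPA7 had 0.45 (SE 0.33, interval -0.32 to 1.21, limma adjusted p = 0.881) and EXPA18 0.14 (SE 0.31, interval -0.58 to 0.86, limma adjusted p = 0.977). The intervals of the last 3 hold 0 and reach changes of over 0.5 on the log2 scale, so they do not show that iron supply left these genes unaltered in WT.

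Of the 5 genes, 1 was called lower in WT at that threshold, AT3G49960, where 0.0747% of all probe sets were. In fit 3 were called lower (AT3G49960, AT5G04970 and AT4G25790), where 0.0703% of all probe sets were, and nothing is read from either count because these calls chose the genes. The median log2 fold change of the 5 genes was -0.30 in WT and -1.45 in fit, beside -0.01 and 0.03 over all probe sets. The WT call did not remain without either WT -Fe array, either WT +Fe array or either fit +Fe array, and the 3 calls in fit became 1 without any 1 of the 4 WT arrays or either fit -Fe array and 0 without either fit +Fe array. Without both arrays of high control ratio 2 of the 3 were called, since AT4G25790 had a limma adjusted p of 0.0622, and the changes in fit were -1.21 for EXPA7, -1.05 for EXPA18, -3.30 for AT3G49960, -1.57 for AT5G04970 and -1.60 for AT4G25790.

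**Figure D2:**
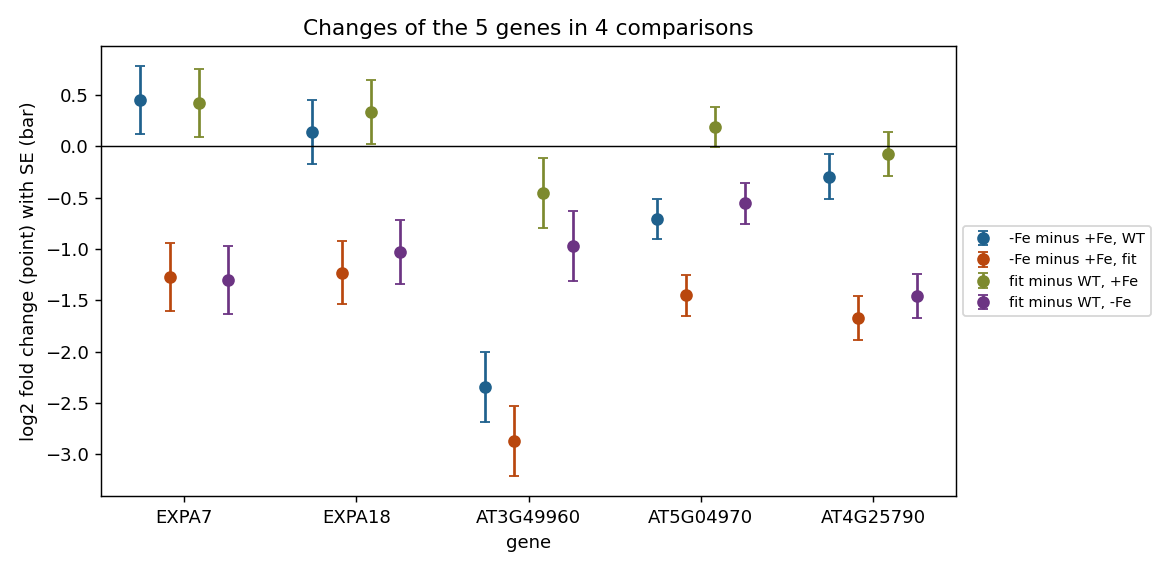
Log2 fold changes of the 5 genes (points) with their standard errors (bars) for -Fe against +Fe in each genotype, and for fit against WT at each iron supply, from 1 model of all 8 arrays. The iron response in fit lies between -2.87 and -1.23 for all 5 genes, whereas with sufficient iron fit minus WT lies between -0.45 and 0.42.

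With sufficient iron, fit and WT roots were set against each other to see whether these genes differed where iron was supplied. None of the 5 was called by limma, against 2 of 22746 probe sets (0.00879%), and none had an unadjusted p under 0.05, as 418 probe sets had. The fit +Fe arrays also enter the comparison that chose 3 of the genes. The log2 differences, fit minus WT, were 0.42 for EXPA7 (SE 0.33, 95% interval -0.35 to 1.19) and 0.34 for EXPA18 (SE 0.31, interval -0.38 to 1.05). They were -0.45 for AT3G49960 (SE 0.34, interval -1.24 to 0.34), 0.19 for AT5G04970 (SE 0.20, interval -0.27 to 0.65) and -0.08 for AT4G25790 (SE 0.22, interval -0.58 to 0.42). For every gene the arrays of both groups overlapped.

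Under iron deficiency all 5 were lower in fit than in WT, and in each case the 2 fit arrays lay below the 2 WT arrays, as in 11.1% of probe sets. The log2 differences were -1.30 for EXPA7 (SE 0.33), -1.03 for EXPA18 (SE 0.31), -0.98 for AT3G49960 (SE 0.34), -0.56 for AT5G04970 (SE 0.20) and, as given above, -1.46 for AT4G25790. Their median was -1.03, beside 0.03 over all probe sets. No gene of the 5 was called by limma, against 0.198% of probe sets called lower, and nothing is read from this count because the fit -Fe arrays chose the genes. The count became 1, AT4G25790, with the replicate number as a block (limma adjusted p = 0.0209 against 0.0534 without it) and in 4 other alternatives. Without the 2 arrays of high control ratio each group keeps 1 array, and the median became -1.45.

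The iron responses were then set against each other, as the response of fit less that of WT, and this was negative for all 5 genes. It was -1.72 for EXPA7 (SE 0.47), -1.37 for EXPA18 (SE 0.44), -1.38 for AT4G25790 (SE 0.30), -0.74 for AT5G04970 (SE 0.28) and -0.52 for AT3G49960 (SE 0.48). None was called by limma over all probe sets, of which 0.0659% were called with a lower response in fit. This comparison holds the one that chose 3 of the genes, so its values are a description and nothing is read from the count.

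Over the 8 arrays the genes formed 2 closely similar pairs. EXPA7 and EXPA18 correlated at Pearson's r = 0.94, and AT3G49960 and AT5G04970 at r = 0.94. AT4G25790 lay between them, with r = 0.85 and 0.90 to the expansins and 0.83 and 0.84 to the other pair. The lowest r was 0.55, between EXPA7 and AT3G49960. These values describe 8 arrays that share their group structure and replicate differences.

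Beside the chosen genes stand the other measured members of their families, from lists drawn up with earlier results of these data known. Of the 16 other expansins measured (of 33 listed), 0 were called in any of the 5 comparisons by limma. Over all 22746 probe sets it called 98 for the iron response in WT and 46 in fit. It called 2 and 62 for fit against WT with and without iron, and 17 for the difference of the responses. Of the 16 expansins, 4 in WT and 7 in fit had an unadjusted p under 0.05 for the iron response, beside 7.20% and 8.52% of all probe sets. The median log2 change of the 16 was -0.14 in WT and -0.16 in fit, beside -0.01 and 0.03 over all probe sets. The 4 with the largest change in fit were EXPB1 at -1.27 (SE 0.34), EXPB3 at -1.25 (SE 0.21), EXPA4 at -1.25 (SE 0.41) and EXPA15 at -1.14 (SE 0.25), beside -1.28 for EXPA7 and -1.23 for EXPA18.

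In WT these 4 had log2 changes of -0.55 (SE 0.34), -1.09 (SE 0.21), -1.02 (SE 0.41) and -1.38 (SE 0.25), in the same order. EXPA7 and EXPA18 had 0.45 and 0.14, with the sign kept in 17 and 16 of 18 alternatives. EXPA15 had the lowest, with log2 signals of 9.48 and 9.05 on WT -Fe against 10.85 and 10.44 on WT +Fe (limma adjusted p = 0.0986). It was also 2.18-fold lower in fit than in WT with sufficient iron, at 9.34 and 9.71 on the fit +Fe arrays, which was not called (log2 -1.12, SE 0.25, limma adjusted p = 1.00).

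**Figure D3:**
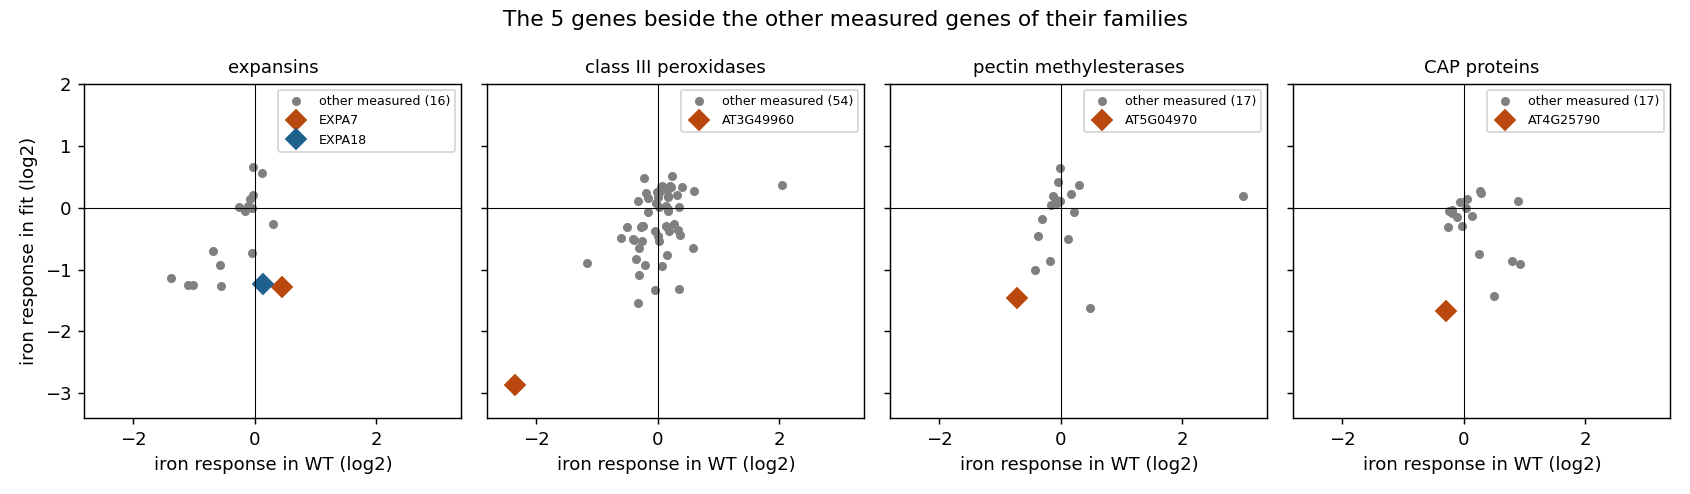
Iron response in WT (horizontal, log2) against iron response in fit (vertical, log2) for the 4 families, with the 5 genes as coloured diamonds and the other measured members as grey points. AT3G49960 lies at -2.35 and -2.87, below every other measured peroxidase gene on both axes, and EXPA7 and EXPA18 lie at a fit response near that of 4 other expansins but to their right.

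Among the class III peroxidases, 54 of 72 others listed were measured. Their median was 0.03 in WT and -0.28 in fit. AT3G49960 had a lower change than all of them in both genotypes, where the others ranged from -1.16 to 2.04 in WT and from -1.54 to 0.51 in fit. It was chosen for those changes, so its place is a description.

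The other peroxidase genes with the largest changes in fit were AT4G30170 at -1.54 (SE 0.32), AT4G26010 at -1.34 (SE 0.37), AT1G30870 at -1.32 (SE 0.26) and AT2G39040 at -1.09 (SE 0.24). None was called, and in WT they had -0.32, -0.03, 0.36 and -0.31 beside -2.35 for AT3G49960. AT4G30170 read 10.91 and 10.21 on fit -Fe and 11.29 to 12.31 on the other 6 arrays. AT5G19890 was the 1 of these 54 genes called in any comparison, in WT, where 0.356% of probe sets were called higher. It rose in iron-deficient WT roots, from 7.30 and 7.42 to 9.63 and 9.18 (log2 2.04, SE 0.26, limma adjusted p = 0.0177). That call was kept in 11 of 18 alternatives. In fit AT5G19890 had 0.37 (SE 0.26).

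Of the other pectin methylesterases, 17 of 27 listed were measured, with medians of -0.04 in WT and 0.08 in fit. AT5G04960, the gene next to AT5G04970 in the annotation, had the largest change in fit. Its log2 signal was 8.05 and 8.001 on fit -Fe against 9.72 and 9.57 on fit +Fe, 9.78 and 9.37 on WT -Fe and 9.49 and 8.70 on WT +Fe. The change in fit was -1.62 (SE 0.28, limma adjusted p = 0.114), close to the -1.45 of AT5G04970, whereas in WT the neighbours had values of opposite sign, 0.49 (SE 0.28) and -0.71. Whether their probes share sequence was not tested. The gene on the other side, AT5G04980, had -0.44 (SE 0.25) in fit.

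ATPMEPCRB, another gene of this family, was called higher in iron-deficient WT roots, as 0.356% of probe sets were (log2 3.00, SE 0.22, limma adjusted p = 0.00131). Under iron deficiency it was also called lower in fit than in WT, as 0.198% of probe sets were (log2 -3.43, SE 0.22, limma adjusted p = 0.00100). That call was kept in all 18 alternatives. The log2 signals of ATPMEPCRB were 8.09 and 7.80 on WT -Fe against 4.13 to 5.01 on the other 6 arrays. Next in size in fit were ATPMEPCRD at -1.01 (SE 0.31), AT2G47550 at -0.86 (SE 0.32) and AT2G36700 at 0.63 (SE 0.23), none of them called.

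Among the CAP proteins, 17 of 20 others were measured and 0 were called by limma in any of the 5 comparisons, beside the counts over all probe sets given for the expansins. For the iron response 2 in WT and 2 in fit had an unadjusted p under 0.05, beside the same 7.20% and 8.52% of all probe sets. The medians of the 17 were 0.06 in WT and -0.09 in fit. AT4G30320 had the change in fit nearest to that of AT4G25790, at -1.43 (SE 0.43). Its log2 signals were 5.77 and 6.81 on fit -Fe, 8.08 and 7.37 on fit +Fe, 7.52 and 7.31 on WT -Fe and 7.39 and 6.43 on WT +Fe. The fit -Fe arrays of AT4G30320 thus did not both lie below the others. It was followed by AT4G33730 at -0.91 (SE 0.24), AT1G50060 at -0.87 (SE 0.41) and AT4G33720 at -0.76 (SE 0.38). In WT the same genes, in that order from AT4G30320, had 0.51, 0.92, 0.79 and 0.26, beside -0.30 for AT4G25790. AT4G25780, the neighbour of AT4G25790 and of the same family, had -0.06 (SE 0.18) in fit, at a low mean log2 signal of 4.87.

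The 4 other root hair genes measured were XTH26, AT1G51860 (RHS5), SCN1 and AT2G14760 (RSL3). XTH26, a xyloglucan endotransglucosylase of the wall, read 4.46 and 4.94 on fit -Fe, 6.25 and 6.05 on fit +Fe, 5.65 and 5.25 on WT -Fe and 5.86 and 5.64 on WT +Fe. Its fit -Fe arrays lay below the other 6, as in 4.69% of all probe sets. The change of XTH26 was -1.45 (SE 0.24, limma adjusted p = 0.0962) in fit and -0.30 (SE 0.24) in WT. Its signal was low, with a fit -Fe mean of 4.70, below 4.96, the 25th percentile of the probe set means. AT1G51860, a receptor-like kinase gene, had -0.68 (SE 0.30) in fit and 1.70 (SE 0.30) in WT. It was called lower in fit than in WT under iron deficiency, as 0.198% of probe sets were (log2 -2.25, SE 0.30, limma adjusted p = 0.0378). That call was kept in 8 of 18 alternatives. The log2 signals of AT1G51860 there were 7.10 on both fit arrays against 9.49 and 9.21 on the WT arrays.

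SCN1, a regulator of the site of hair growth, had -0.47 (SE 0.17) in fit, and RSL3, a basic helix-loop-helix factor of hair growth, had -0.03 (SE 0.20) at a low signal. The 4 had a median of -0.58 in fit and -0.03 in WT, beside 0.03 and -0.01 over all probe sets. None was called in either iron response.

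Of other cell types, the 3 measured shoot photosynthesis markers had a summed linear signal of 448 to 471 on the fit -Fe arrays, 507 to 674 on fit +Fe, 379.8 to 477 on WT -Fe and 589.8 to 598 on WT +Fe. TRY, the 1 patterning gene measured, had log2 signals of 4.93 and 6.92 on fit -Fe and 4.71 to 5.83 on the other 6 arrays. The part of cell type makeup and of RNA quality in the lower signals of the 5 genes was not tested.

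The genes most like the 5 were sought among 3534 probe sets naming 1 gene whose log2 signal ranged over at least 1, by Pearson's r to the mean of the 5 centred signals over the 8 arrays. The closest was AT4G16980 (r = 0.985), followed by AT5G36270 (0.977), AT2G44940 (0.975), AT4G01390 (0.970), AT3G20510 (0.968) and BZIP61, a leucine zipper factor gene (0.963). AT1G02575, AT5G66420, AT5G40510 and AT3G07950 closed the 10, with r from 0.956 to 0.959. The median r of all candidates was 0.01. None of the 10 is among the listed root hair or wall family genes. Few root hair genes could appear, since 4 of 55 listed were measured and SCN1 and RSL3 ranged over less than 1. The 5 genes themselves were left out of the search, so nothing is read from this absence. Log2 changes of the 10 were between -1.79 and -0.66 in fit and between -1.06 and -0.21 in WT. Low signal on fit -Fe follows from the way the 10 were sought.

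**Figure D4:**
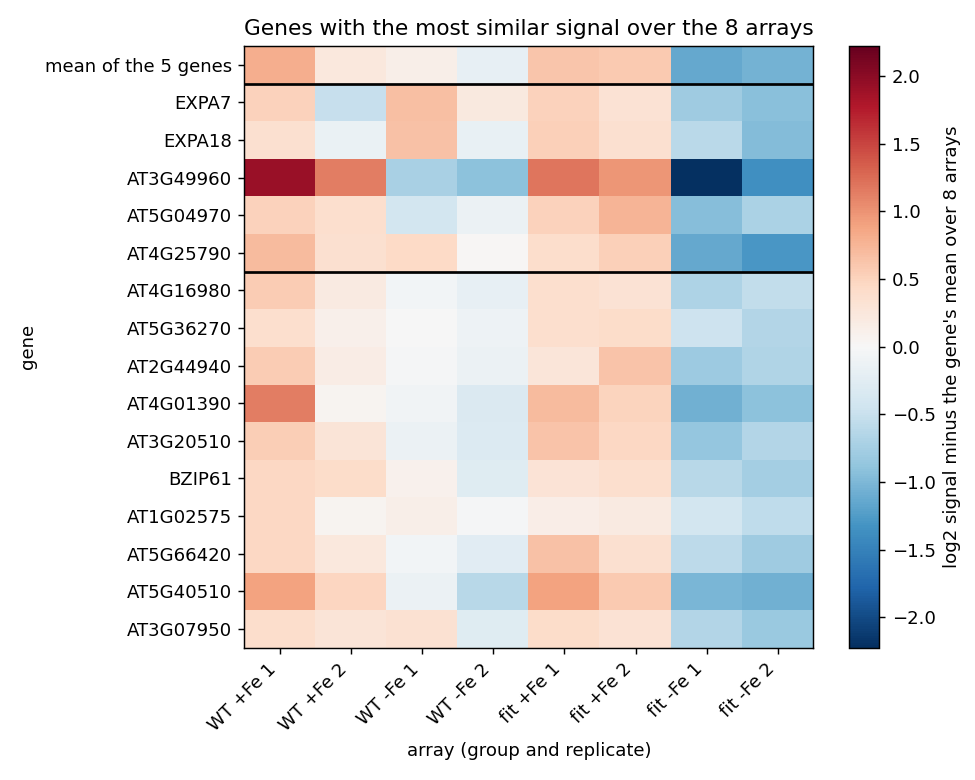
Log2 signal on each of the 8 arrays minus the gene's own mean, shown by colour, for the mean of the 5 genes (top), each of the 5 (middle) and the 10 genes most like that mean (bottom). The fit -Fe columns are the lowest in all of them, which for the 10 follows from the search for likeness to that mean. In WT -Fe the 5 genes part, with EXPA7 above its mean and AT3G49960 below.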

How the data were processed

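Total RNA from roots was converted to biotin-labelled cRNA by the one-cycle Affymetrix method and hybridised, per the labels' protocols. The authors deposited 1 signal intensity for each probe set, made with RMA, per the submitters' processing notes. Neither its version nor whether it ran on all 8 arrays at once is stated in these sources. The deposited intensity lay between 7.13 and 21060 on the linear scale, and log2 was taken of it. RMA narrows differences between dim probe sets. The small number of arrays, 2 per group, limits the precision.

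The 64 control probe sets were left out, leaving 22746, of which 13513 named 1 gene, 503 several and 8730 none here. Names come from the platform annotation and the RefSeq gene table of TAIR10.1, used for names and neighbours only. No build is named for the array, so no coordinates are given. Common names in brackets come from the gene lists.

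Group means were fitted to all 8 arrays with limma 3.58.1 in R 4.3.3 (lmFit, eBayes, 4 residual and 3.82 prior degrees of freedom). The Benjamini-Hochberg adjustment ran over all 22746, with calls at an adjusted p under 0.05. The fit was tested on simulated data. Where replicates are not separate plantings, p-values measure only the spread between these arrays. The control ratio is the geometric mean of 3 transcripts.

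The 5 genes and the 11 lists of 251 other genes (112 measured) were chosen with earlier results of these data known. Per list, the text names the 4 members with the largest change in fit and every called member. Genes of like pattern are the 10 highest r. Alternatives left out single arrays or both arrays of high control ratio, added a replicate block, array weights or the control ratio as a covariate, and changed the normalisation, filter, variance model, arrays fitted or pseudocount. Each gene has 1 probe set, so no other probe set could be used, and promoter sequences were not used here.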

Additional observations from a re-analysis of the deposited data

Results flagged for a closer look

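None of the 5 genes met a rule for a closer look, and 3 genes of the lists beside them did, because their iron responses in WT and fit differed. For ATPMEPCRB the iron response of fit less that of WT was -2.81 (SE 0.31, limma adjusted p = 0.0358, and 0.00587 to 0.284 over 17 alternatives, of which 10 kept the call). For AT1G51860 (RHS5) both WT -Fe arrays lay above and both fit -Fe arrays below the iron-sufficient arrays of their genotype, with a difference of -2.38 (SE 0.42), which the test did not call (limma adjusted p = 0.202). AT4G33730 had the same ordering and a difference of -1.83 (SE 0.33, limma adjusted p = 0.228). The share of all probe sets with this ordering is not given here, so nothing is read from the ordering of these genes.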

How the results depend on the processing

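Of 445 values of the 5 genes under the alternatives, 414 moved by less than the spread between replicates and 31 by more. No called value changed sign, but some uncalled values did. In WT the change of EXPA18 kept its sign in 16 of 18 alternatives and that of EXPA7 in 17. For fit against WT with sufficient iron, EXPA7 and AT4G25790 each kept their sign in 17 of 18. In WT the 1 gene called, AT3G49960, became 0 with only the arrays compared or a pseudocount of 32, and 0 to 1 without single arrays. In fit the 3 called became 0 with only the arrays compared or that pseudocount, which also brought the median log2 change of the 5 genes to -1.17 by its construction, 1 with array weights, 2 with the trended and robust variance or without both arrays of high control ratio, and 0 to 1 without single arrays. For fit against WT under iron deficiency, 1 gene (AT4G25790) was called with the replicate block, repeated quantile normalisation, median centring, no dim probe sets or the control ratio as a covariate, and 0 in the other alternatives. The median was -1.45 when both arrays with a high control ratio were left out and -1.45 to -0.89 without single arrays. With sufficient iron it was -0.10 to 0.26 without single arrays, below 0 without WT +Fe replicate 2. For the difference of responses it was -1.11 with the covariate and -1.58 to -0.95 without single arrays. The cause was not tested.

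Equal replicate numbers deviated together (r of 0.13 to 0.66 between groups), but no label ties them. The highest r was between WT -Fe and fit -Fe, whose replicate 2 arrays both had a high control ratio. The part of RNA quality in it was not tested. The replicate block added EXPA18 in fit, giving 4 genes, and raised the probe sets called from 98 to 201 in WT and from 46 to 145 in fit. Over all alternatives those counts ran from 26 to 382 and from 1 to 147, from 0 to 20 for fit against WT with iron, from 10 to 188 without and from 3 to 93 for the difference.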
